A study of Mus musculus with 16 samples.

Results

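Scavenger receptors and efferocytosis receptors are the cell surface proteins by which macrophages bind and take up modified lipoproteins, microbes, matrix fragments, haemoglobin and dying cells. The 9 receptor genes examined here, of the 32285 genes counted, were chosen by name, as a family: *Marco* and *Msr1* (class A scavenger receptors), *Cd36* (class B), *Mrc1*, *Stab1* and *Cd163* (receptors of resident and alternatively activated macrophages), *Mertk* and *Axl* (receptor tyrosine kinases), and *Timd4*. The choice was made with earlier results of these data known. Their unique molecular identifiers (UMIs, which count each captured RNA molecule once) were measured by single-cell RNA-Seq in bone marrow stromal cell cultures of 12-week-old mice after 21 days in osteoblastic medium with 10 mM bGP. All mice carried the floxed *Fgf23* gene. WT mice had both copies of *Dmp1*, which encodes a protein of the bone matrix, and no Cre. Fgf23cKO mice carried in addition a Cre transgene under the *Dmp1* promoter, which is active in mature osteoblasts and osteocytes, so *Fgf23*, the hormone that lowers serum phosphate, was deleted in those cells and not in macrophages by design. Dmp1KO mice lacked *Dmp1* in all cells and had no Cre, and Dmp1KO/Fgf23cKO mice lacked *Dmp1* and carried the Cre. Each genotype was captured as a single pool of 3 cultures with a tag each, in a droplet reaction of its own, so that a difference between genotypes cannot be told apart from a difference between reactions. The study's legend counts as many mice as tagged cultures in each genotype, but the labels do not tie a culture to a mouse, and the p-values below measure the spread between these cultures. Counts of the first Dmp1KO culture were not used here, which leaves 11 tagged cultures, with n = 2 for Dmp1KO and n = 3 for each other genotype.

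Class A scavenger receptors are trimers with a collagenous stem that bind polyanionic ligands such as modified low-density lipoprotein and bacterial surfaces, and CD36 takes up oxidised lipoprotein and long-chain fatty acids. MERTK and AXL recognise phosphatidylserine on dying cells through the bridging proteins GAS6 and protein S, whereas TIM-4 and stabilin-1 bind it directly. In bone marrow, resident macrophages use these receptors to clear expelled erythroblast nuclei, aged neutrophils and apoptotic osteoblast-lineage cells.

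The stretches before the start sites of 4 receptors are shown because the results turn on them: *Marco*, with the largest difference, *Mrc1* and *Stab1*, the pair with the highest odds ratio of being found together among the 21 pairs compared, and *Cd36*, which went its own way. Sequences are those of RefSeq on GRCm38.p6, read 5′ to 3′ on the strand of the gene, and end at the base before the RefSeq start, except that of *Mrc1*, which ends where the GENCODE transcript begins. The start used for *Cd36* lies inside the gene as GENCODE draws it. Capitals mark GAGGAA or its complement TTCCTC, the core of sites of the myeloid factor PU.1, and TGCTGA, the half-site of MAF factors. RefSeq windows were given for 8 of the 9 genes, and that of *Cd163* left no bases outside an exon to search.
Marco, chr1:120505025-120505274, minus strand: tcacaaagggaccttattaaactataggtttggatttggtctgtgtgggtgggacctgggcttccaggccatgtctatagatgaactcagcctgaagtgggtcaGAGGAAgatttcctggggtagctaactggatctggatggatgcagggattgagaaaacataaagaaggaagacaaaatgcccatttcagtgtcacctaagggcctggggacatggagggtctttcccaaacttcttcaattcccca
Mrc1, chr2:14229164-14229391, plus strand: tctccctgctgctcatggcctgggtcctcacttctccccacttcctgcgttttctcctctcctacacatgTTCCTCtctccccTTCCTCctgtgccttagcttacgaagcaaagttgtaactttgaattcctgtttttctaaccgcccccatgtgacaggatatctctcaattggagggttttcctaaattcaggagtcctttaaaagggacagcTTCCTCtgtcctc
Stab1, chr14:31168642-31168891, minus strand: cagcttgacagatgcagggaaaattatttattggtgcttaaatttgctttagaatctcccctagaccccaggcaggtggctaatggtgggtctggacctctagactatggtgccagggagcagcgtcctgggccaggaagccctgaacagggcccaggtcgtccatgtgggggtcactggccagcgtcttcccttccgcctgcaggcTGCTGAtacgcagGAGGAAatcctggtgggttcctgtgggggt
Cd36, chr5:17835897-17836146, minus strand: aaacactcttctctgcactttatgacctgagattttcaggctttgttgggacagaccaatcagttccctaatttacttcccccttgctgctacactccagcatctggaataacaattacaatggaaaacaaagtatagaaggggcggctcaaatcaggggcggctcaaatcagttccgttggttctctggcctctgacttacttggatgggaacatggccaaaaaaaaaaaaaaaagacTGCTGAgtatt
With positions counted back from the RefSeq start, *Marco* held 1 PU.1 core, from base -146 to -141, and *Stab1* held 1 from -30 to -25 and 1 MAF half-site from -43 to -38. *Mrc1* held 3 PU.1 cores, each on the other strand, that begin at -180, -167 and -35, in a window of 228 bases, and *Cd36* held no PU.1 core and 1 MAF half-site from -11 to -6. Searched on both strands, GAGGAA occurred in 23.25% and TGCTGA in 16.08% of 32851 windows of all genes, so such a match is common and is a description, not a site. The AP-1 motif TGANTCA (6.749% of windows) and TATAAA (12.37%) were not found in the windows of the receptors that had bases to search.

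Cells were classed by genes that do not include the receptors. A cell was called myeloid when at least 0.5% of its UMIs came from 10 general leukocyte and myeloid genes (*Tyrobp*, *Csf1r*, *Lyz2* and others) and these were at least 3 times its UMIs of 10 collagen and matrix genes, and stromal in the reverse case. This gave 13253 myeloid and 609 stromal cells among 14577 tagged cells, with 606 myeloid cells near the limits, and myeloid cells made up 80.4 to 96.8% of a tagged culture. All 10 macrophage markers were found in the myeloid cells, with 1.88 to 3.34% of their UMIs on average, whereas markers of neutrophils, dendritic cells, T cells and B cells together were at or near 0. Tagged cultures held 9518928 to 72482185 UMIs, and the median myeloid cell had 7024 to 7299 UMIs in WT, 30803 to 36332 in Fgf23cKO, 20314 to 22427 in Dmp1KO and 34039 to 34470 in Dmp1KO/Fgf23cKO. Myeloid cells with over 20% mitochondrial UMIs made up 2.23 to 5.03% in WT, 12.9 to 13.9% in Fgf23cKO, 2.71 to 4.54% in Dmp1KO and 8.10 to 11.5% in Dmp1KO/Fgf23cKO, and cells with at least 3 osteoclast markers made up 4.04 to 5.28% in WT, 23 to 25.9% in Fgf23cKO, 29.1 to 35.5% in Dmp1KO and 17.5 to 22.5% in Dmp1KO/Fgf23cKO. Markers were counted in unthinned cells, so these osteoclast marker shares depend on depth. In the clustering below, cluster 15, led by *Mmp9*, *Acp5* and *Ctsk*, was 74.65% WT and 4.178% Dmp1KO. The part of depth in the results below was not tested, except where values at equal depth are given. That of mitochondrial UMIs and osteoclast markers was not tested. Values without cycling and osteoclast marker cells are given, but those cells were picked at unequal depth. Their removal left 1436 of 2735 myeloid cells in Dmp1KO replicate 2 and 1627 of 1881 in WT replicate 2. The deletion of *Dmp1* showed in the counts, with 5 UMIs in Dmp1KO and 175 in Dmp1KO/Fgf23cKO over all cells compared with 3530 in WT and 4665 in Fgf23cKO. *Fgf23*, with 1 to 10 UMIs per genotype, was too rare to check. No cell barcode was shared within a genotype, and 44 were shared over 96 pairs of samples of different genotypes.

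Levels are given per culture as CPM, the UMIs of the gene in the myeloid cells scaled to the same total of UMIs in every culture, and fold changes come from edgeR on the summed counts of the tagged cultures, called at an adjusted p under 0.1 over 13910 genes tested. Compared with WT, 7 of the 8 receptors tested fell in Dmp1KO and none rose, beside 69.9% of all genes called in either direction. With so many genes called, the count says little and the sizes are the measurement: the receptors had a median log2 fold change of -1.49, and all genes a median of -0.0018. Taken without sign, the medians were 1.49 for the receptors and 0.44 for all genes. Compared with Dmp1KO, 7 receptors rose and 1 fell in Dmp1KO/Fgf23cKO (65.6% of all genes called), with a median of 1.5 compared with -0.055 over all genes. Fgf23cKO had 6 receptors lower than WT (49.9% of all genes called, median -0.55 compared with 0.0066). Dmp1KO/Fgf23cKO had 1 receptor higher and 5 lower than WT (58.9% of all genes called, median -0.46 compared with -0.00079), and 4 higher and 3 lower than Fgf23cKO (36.7% of all genes called, median 0.048 compared with -0.021). These comparisons share cultures and are not independent of each other. Because CPM are shares of the UMIs of a sample and edgeR rescales them, Dmp1KO values on the CPM scale give log2 ratios to WT that are shifted by -0.27 for every gene relative to edgeR.

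**Figure D1:**
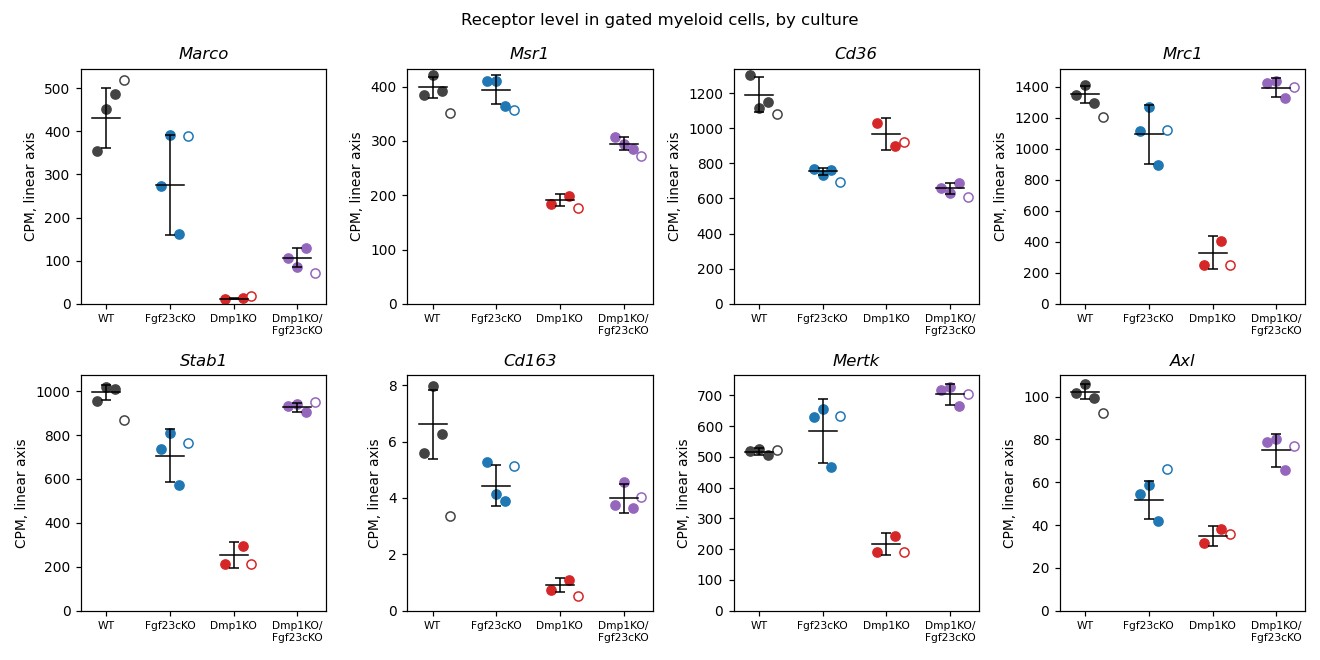
Level of 8 receptors in myeloid cells by genotype, in CPM on linear axes that start at 0; filled points are tagged cultures, bars their mean and SD, and open points the untagged cells of the same pool, which were not tested. *Marco*, *Mrc1*, *Stab1* and *Mertk* lie lower in both Dmp1KO cultures than in every other culture, whereas *Cd36* is lowest in Dmp1KO/Fgf23cKO.

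*Marco* (ENSMUSG00000026390, GRCm38 chromosome 1, 120474538 to 120505024, minus strand), the receptor by which splenic and alveolar macrophages bind bacteria and inhaled particles, showed the largest difference among the receptors. WT cultures held 354, 452 and 488 CPM, Fgf23cKO cultures 272, 392 and 162 CPM, the Dmp1KO cultures 11.9 and 12.6 CPM, and Dmp1KO/Fgf23cKO cultures 105, 86.3 and 129 CPM. WT and Fgf23cKO overlapped, both Dmp1KO cultures lay below all others, and Dmp1KO/Fgf23cKO lay between them without overlap. The log2 fold change of Dmp1KO compared with WT was -4.87 (SE 0.34, edgeR adjusted p = 4.236e-08), or 29.25-fold lower, and 82 of the 13910 genes tested changed more in either direction. Compared with Dmp1KO, Dmp1KO/Fgf23cKO was higher by 2.83 on the log2 scale (SE 0.31, edgeR adjusted p = 4.114e-06), but it stayed lower than WT by a log2 fold change of -2.04 (SE 0.25, edgeR adjusted p = 1.735e-05) and lower than Fgf23cKO (-1.38, SE 0.24, edgeR adjusted p = 0.001485). Fgf23cKO compared with WT gave -0.66 (SE 0.24, edgeR adjusted p = 0.03899), which was no longer called without WT replicate 2 (adjusted p = 0.1037), without WT replicate 3 (0.1349) or without cycling and osteoclast marker cells (0.1439) in edgeR.

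*Msr1* (ENSMUSG00000025044, chromosome 8, 39581685 to 39642673, minus strand) encodes the class A receptor first known for the uptake of acetylated lipoprotein. It stood at 384, 421 and 392 CPM in WT, at 410, 410 and 364 CPM in Fgf23cKO, at 183 and 198 CPM in Dmp1KO and at 307, 294 and 285 CPM in Dmp1KO/Fgf23cKO. The order of *Marco* recurred with smaller steps, and only WT and Fgf23cKO overlapped. The log2 fold change was -0.80 (SE 0.063, edgeR adjusted p = 1.496e-07) in Dmp1KO and -0.45 (SE 0.056, edgeR adjusted p = 2.071e-05) in Dmp1KO/Fgf23cKO compared with WT. Dmp1KO/Fgf23cKO lay 0.35 above Dmp1KO on the log2 scale (SE 0.062, edgeR adjusted p = 3.001e-04) and was lower than Fgf23cKO (-0.43, SE 0.055, edgeR adjusted p = 2.026e-04). Fgf23cKO and WT did not differ beyond their spread (-0.02, SE 0.056, edgeR adjusted p = 0.8111).

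*Cd36* (ENSMUSG00000002944, chromosome 5, 17781690 to 17888801, minus strand), the fatty acid and oxidised lipoprotein receptor, was lower in both genotypes that carried the Cre. WT cultures held 1306, 1116 and 1152 CPM, Fgf23cKO cultures 770.0, 734 and 765 CPM, the Dmp1KO cultures 1029.9 and 901 CPM, and Dmp1KO/Fgf23cKO cultures 657, 629 and 691 CPM. Both Cre genotypes lay below WT and Dmp1KO in every culture. Compared with WT, the log2 fold change was -0.66 (SE 0.066, edgeR adjusted p = 5.996e-06) in Fgf23cKO and -0.87 (SE 0.066, edgeR adjusted p = 3.154e-07) in Dmp1KO/Fgf23cKO, and compared with Dmp1KO it was -0.84 (SE 0.072, edgeR adjusted p = 4.749e-07) in Dmp1KO/Fgf23cKO. Dmp1KO/Fgf23cKO was also below Fgf23cKO (-0.21, SE 0.066, edgeR adjusted p = 0.02943), a call lost without Dmp1KO/Fgf23cKO replicate 2 (edgeR adjusted p = 0.1134). In Dmp1KO the value depended on the scale: both cultures lay below all WT cultures in CPM (mean 966 compared with 1191), whereas the edgeR log2 fold change was -0.03 (SE 0.073, adjusted p = 0.7211), and it was -0.22 with cells thinned to equal depth (edgeR adjusted p = 0.01303), -0.31 without cycling and osteoclast marker cells (edgeR adjusted p = 0.01135) and -0.16 without Dmp1KO replicate 2 (edgeR adjusted p = 0.09374).

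*Mrc1* (ENSMUSG00000026712, chromosome 2, 14229392 to 14332057, plus strand) encodes the mannose receptor CD206, which clears mannosylated glycoproteins and collagen fragments and marks resident and alternatively activated macrophages. Its level was 1349, 1409 and 1298 CPM in WT, 1113, 1269 and 895 CPM in Fgf23cKO, 253 and 403 CPM in Dmp1KO and 1424, 1436 and 1325 CPM in Dmp1KO/Fgf23cKO. The Dmp1KO cultures lay below all others, and WT and Dmp1KO/Fgf23cKO overlapped. Dmp1KO was 3.431-fold lower than WT (log2 fold change -1.78, SE 0.16, edgeR adjusted p = 6.043e-07), Dmp1KO/Fgf23cKO was 3.5-fold higher than Dmp1KO (1.81, SE 0.16, edgeR adjusted p = 7.08e-07), and Dmp1KO/Fgf23cKO and WT differed by 0.03 (SE 0.14, edgeR adjusted p = 0.8804). Fgf23cKO was called lower than WT (-0.31, SE 0.14, edgeR adjusted p = 0.08433) and lower than Dmp1KO/Fgf23cKO, but each call held in 9 of 21 alternatives, and with the replicate number as a block both were lost (edgeR adjusted p = 0.1138 and 0.1118).

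*Stab1* (ENSMUSG00000042286, chromosome 14, 31139013 to 31168641, minus strand) encodes stabilin-1, which takes up modified lipoprotein and the matrix protein SPARC and binds phosphatidylserine. WT cultures held 954, 1019 and 1009.7 CPM, Fgf23cKO cultures 736, 808 and 572 CPM, the Dmp1KO cultures 212 and 296 CPM, and Dmp1KO/Fgf23cKO cultures 932, 941 and 904 CPM. As for *Mrc1*, only the Dmp1KO cultures lay far from the rest, with a log2 fold change of -1.70 (SE 0.14, edgeR adjusted p = 1.62e-07) compared with WT. Dmp1KO/Fgf23cKO lay 1.58 above Dmp1KO (SE 0.13, edgeR adjusted p = 4.294e-07) and 0.38 above Fgf23cKO (SE 0.11, edgeR adjusted p = 0.02574), a call lost without cycling and osteoclast marker cells (edgeR adjusted p = 0.1446). It differed from WT by -0.12 (SE 0.11, edgeR adjusted p = 0.4033), with every culture just below the WT cultures in CPM, and was called lower with thinned cells (-0.24, edgeR adjusted p = 0.04825). Fgf23cKO was lower than WT in all cultures (-0.50, SE 0.11, edgeR adjusted p = 0.003355).

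*Cd163* (ENSMUSG00000008845, chromosome 6, 124304656 to 124330527, plus strand), the receptor of haemoglobin bound to haptoglobin, was rare, with 43 to 119 UMIs per tagged culture. Its level was 5.60, 7.97 and 6.29 CPM in WT, 5.27, 4.15 and 3.90 CPM in Fgf23cKO, 0.722 and 1.09 CPM in Dmp1KO and 3.75, 4.57 and 3.65 CPM in Dmp1KO/Fgf23cKO. Both Dmp1KO cultures lay below all others, all WT cultures lay highest, and the Cre genotypes overlapped each other. The log2 fold change from WT was -2.64 (SE 0.22, edgeR adjusted p = 2.745e-07) in Dmp1KO, -0.77 (SE 0.19, edgeR adjusted p = 0.003798) in Dmp1KO/Fgf23cKO and -0.61 (SE 0.19, edgeR adjusted p = 0.02049) in Fgf23cKO, and Dmp1KO/Fgf23cKO exceeded Dmp1KO by 1.87 (SE 0.22, edgeR adjusted p = 7.229e-06). With cells thinned to 3000 UMIs, neither Cre genotype was called lower than WT (edgeR adjusted p = 0.6237 in Fgf23cKO and 0.137 in Dmp1KO/Fgf23cKO), and the call for Fgf23cKO was also lost without WT replicate 2 (edgeR adjusted p = 0.1287).

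*Mertk* (ENSMUSG00000014361, chromosome 2, 128698956 to 128802894, plus strand), the receptor kinase through which macrophages take up apoptotic cells at rest, stood at 518, 527 and 507 CPM in WT, 630, 657 and 467 CPM in Fgf23cKO, 191 and 242 CPM in Dmp1KO and 719, 727 and 665 CPM in Dmp1KO/Fgf23cKO. Dmp1KO lay lowest and Dmp1KO/Fgf23cKO highest, each without overlap, and Fgf23cKO spanned WT. The log2 fold change from WT was -0.99 (SE 0.12, edgeR adjusted p = 9.441e-06) in Dmp1KO and 0.43 (SE 0.11, edgeR adjusted p = 0.004426) in Dmp1KO/Fgf23cKO, which made *Mertk* the receptor that was higher than WT in Dmp1KO/Fgf23cKO. Dmp1KO/Fgf23cKO was 2.668-fold above Dmp1KO (1.42, SE 0.12, edgeR adjusted p = 4.965e-07). Fgf23cKO differed from WT by 0.17 (SE 0.11, edgeR adjusted p = 0.2182), and without Fgf23cKO replicate 3 this was called (0.31, edgeR adjusted p = 0.003114). The excess of Dmp1KO/Fgf23cKO over Fgf23cKO (0.26, SE 0.10, edgeR adjusted p = 0.08623) was called in 11 of 21 alternatives.

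*Axl* (ENSMUSG00000002602, chromosome 7, 25757273 to 25788705, minus strand), the kinase of the same family that is known from inflamed tissue, gave 102, 106 and 99.1 CPM in WT, 54.5, 58.8 and 41.8 CPM in Fgf23cKO, 31.8 and 38.2 CPM in Dmp1KO and 78.6, 80.1 and 65.8 CPM in Dmp1KO/Fgf23cKO. In CPM the 4 genotypes did not overlap, in the order Dmp1KO, Fgf23cKO, Dmp1KO/Fgf23cKO and WT from low to high. Dmp1KO and Fgf23cKO lay close and were not tested against each other. As the CPM of Dmp1KO are shifted down relative to edgeR, the lack of overlap between Dmp1KO and Fgf23cKO holds on the CPM scale only. Compared with WT the log2 fold change was -1.28 (SE 0.12, edgeR adjusted p = 7.079e-07) in Dmp1KO, -0.995 (SE 0.11, edgeR adjusted p = 1.336e-05) in Fgf23cKO and -0.47 (SE 0.11, edgeR adjusted p = 0.002512) in Dmp1KO/Fgf23cKO. Dmp1KO/Fgf23cKO exceeded Dmp1KO by 0.82 (SE 0.12, edgeR adjusted p = 4.15e-05) and Fgf23cKO by 0.53 (SE 0.11, edgeR adjusted p = 0.003471). *Axl* was also the receptor that stromal cells held at a like level, with a median over tagged cultures of 81.7% of the myeloid CPM (37.3 to 348.1%), compared with 2.59 to 6.48% for *Marco*, *Msr1*, *Cd36*, *Mrc1*, *Stab1* and *Mertk* and 0% for *Cd163*.

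*Timd4* (ENSMUSG00000055546, chromosome 11, 46810800 to 46844332, plus strand), the phosphatidylserine receptor of long-lived resident macrophages, was close to absent from the counts and was not tested. A total of 7 UMIs lay in 5 of 13253 tagged myeloid cells, a share of 0.0377% (exact Clopper-Pearson 95% interval 0.0123 to 0.0880%, counting error only), in 4 of the 11 cultures. Differences between genotypes were not detectable at this depth.

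**Figure D2:**
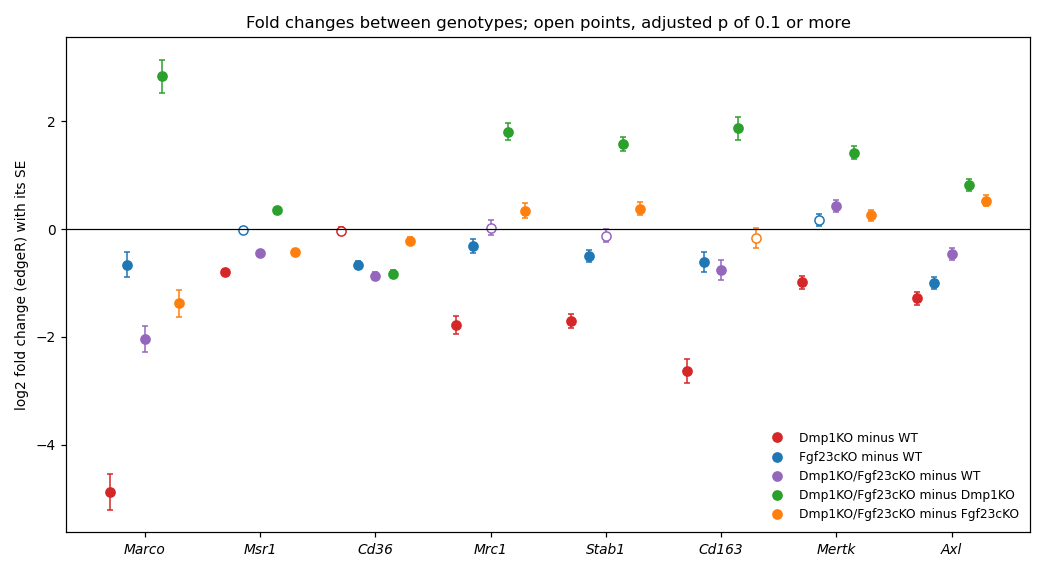
Log2 fold change (edgeR, y axis) with its SE for 8 receptors (x axis) in 5 comparisons of genotypes; filled points passed an adjusted p of 0.1 and open points did not. *Marco* has the lowest value, -4.87 in Dmp1KO compared with WT, and *Cd36* stands apart from the other receptors in having a value below 0 for Dmp1KO/Fgf23cKO compared with Dmp1KO.

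Whether the Cre acted differently with and without *Dmp1* was tested as an interaction, the log2 fold change of Dmp1KO/Fgf23cKO compared with Dmp1KO minus that of Fgf23cKO compared with WT. It was above 0 and called for 7 of the 8 receptors, beside 63.0% of all genes called in either direction, with a median of 1.95 over the receptors and -0.025 over all genes. Taken without sign, the median was 1.95 over the receptors and 0.50 over all genes. *Marco* had 3.49 (SE 0.39, edgeR adjusted p = 5.555e-06), *Cd163* 2.48 (SE 0.29), *Mrc1* 2.12 (SE 0.21), *Stab1* 2.08 (SE 0.18), *Axl* 1.81 (SE 0.16), *Mertk* 1.25 (SE 0.16) and *Msr1* 0.37 (SE 0.083, edgeR adjusted p = 0.002039). For *Cd36* it was -0.18 (SE 0.098, edgeR adjusted p = 0.1352), that is, *Cd36* was lower with the Cre on both backgrounds and the difference between backgrounds did not pass the test, although it was called in 6 of 21 alternatives, with edgeR adjusted p from 0.003828 to 0.9396 over them. These values rest on 1 droplet reaction per genotype.

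Depth differed between genotypes, so each myeloid and stromal cell was reduced at random to 3000 UMIs (thinned), and 577 WT, 161 Fgf23cKO, 257 Dmp1KO and 185 Dmp1KO/Fgf23cKO myeloid cells with fewer UMIs were left out. A *Marco* UMI was then found in 38.7% ± 3.49 (SD, n = 3) of WT, 29.0% ± 8.59 (SD, n = 3) of Fgf23cKO, 2.86% ± 0.543 (SD, n = 2) of Dmp1KO and 13.7% ± 0.885 (SD, n = 3) of Dmp1KO/Fgf23cKO myeloid cells. Without thinning the means were 48.9, 59.0, 9.21 and 38.6%. In stromal cells, which should lack the receptor, the thinned share was 2.67% in WT, 5.99% in Fgf23cKO, 0 of 80 cells in Dmp1KO, which allows a share of up to 3.75%, and 0.457% in Dmp1KO/Fgf23cKO. Without thinning, *Marco* was found in 0 and 2.33% of the stromal cells of the Dmp1KO cultures, at medians of 47190 and 31600 UMIs, compared with 9.5 and 8.92% of their myeloid cells at medians of 20314 and 22427 UMIs, so the share was higher in the myeloid cells of each Dmp1KO culture although they were shallower. The unthinned stromal means were 15.6% in WT, 47.1% in Fgf23cKO and 20.9% in Dmp1KO/Fgf23cKO. The source of *Marco* UMIs in stromal cells was not tested. *Mrc1* was found in 83.9% ± 1.74 (SD, n = 3) of WT, 73.8% ± 4.75 (SD, n = 3) of Fgf23cKO, 35.3% ± 5.31 (SD, n = 2) of Dmp1KO and 84.9% ± 3.42 (SD, n = 3) of Dmp1KO/Fgf23cKO cells, with 4.76 to 12% in stromal cells. *Stab1* fell from 79.9% ± 2.98 (SD, n = 3) in WT to 40.9% ± 4.92 (SD, n = 2) in Dmp1KO and was at 81.9% ± 1.25 (SD, n = 3) in Dmp1KO/Fgf23cKO, with 6.19 to 23.5% in stromal cells. *Mertk* was found in 68.8, 69.2, 43.0 and 75.2% of WT, Fgf23cKO, Dmp1KO and Dmp1KO/Fgf23cKO cells, *Msr1* in 59.8, 58.1, 37.2 and 52.6%, and *Axl* in 24.2, 13.9, 11.1 and 18.5%. *Cd36* was found in 80.9% ± 1.93 (SD, n = 2) of Dmp1KO cells compared with 82.5% ± 0.326 (SD, n = 3) in WT, with both cultures just below every WT culture. At 1300 UMIs it was 58.6% compared with 64.7%, at 6000 UMIs 91.7% compared with 91.4%, and without cycling and osteoclast marker cells 77.9% compared with 83.6%. It was less frequent in Fgf23cKO (70.9% ± 1.92, SD, n = 3) and Dmp1KO/Fgf23cKO (65.0% ± 1.85, SD, n = 3). The *Axl* share in stromal cells, 7.82 to 23.5%, overlapped that in myeloid cells. Among cells with at least 1 UMI, thinned *Mrc1* averaged 5.08 UMIs per cell in WT and 3.89 in Dmp1KO and *Marco* 3.19 and 1.55, so both the share of cells and the count per positive cell were lower in Dmp1KO.

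At this depth a WT myeloid cell had a UMI of 4.40 ± 0.0775 (SD, n = 3) of the 9 receptors on average, an Fgf23cKO cell of 3.87 ± 0.344 (SD, n = 3), a Dmp1KO cell of 2.52 ± 0.144 (SD, n = 2) and a Dmp1KO/Fgf23cKO cell of 3.93 ± 0.102 (SD, n = 3). Cells without a UMI of *Marco*, *Msr1*, *Mrc1*, *Stab1* and *Mertk* made up 2.68% in WT, 5.21% in Fgf23cKO, 23.8% in Dmp1KO and 3.19% in Dmp1KO/Fgf23cKO. Cells with all 5 of them made up 14.9% in WT, 12.2% in Fgf23cKO, 0.670% in Dmp1KO and 4.76% in Dmp1KO/Fgf23cKO. Cells in which *Cd36* was the only one of the 9 receptors found made up 18.1% ± 1.41 (SD, n = 2) in Dmp1KO and 1.81% ± 0.385 (SD, n = 3) in WT. The Dmp1KO cultures, at 17.1 and 19.1%, lay above every other tagged culture, of which the highest had 3.81%.

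**Figure D3:**
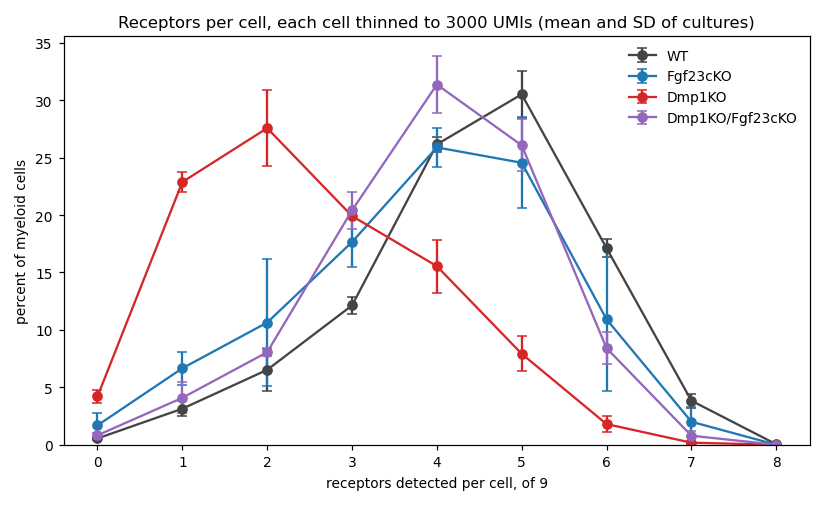
Percent of myeloid cells (y axis) with a given number of the 9 receptors found (x axis), each cell thinned to 3000 UMIs; points and bars are the mean and SD of the tagged cultures of a genotype. Dmp1KO peaks at 2 receptors per cell with 27.6% of cells, WT at 5 with 30.5%, and Fgf23cKO and Dmp1KO/Fgf23cKO at 4.

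Receptors were found together in the same cells to different degrees. Among the 21 pairs without *Timd4* and *Cd163*, which were too rare to compare, *Mrc1* and *Stab1* had the highest log2 odds ratio in each genotype, with a log2 odds ratio of 3.12 ± 0.149 (SD, n = 3) in WT, 2.52 ± 0.386 (SD, n = 3) in Fgf23cKO, 2.84 ± 0.167 (SD, n = 2) in Dmp1KO and 2.52 ± 0.278 (SD, n = 3) in Dmp1KO/Fgf23cKO. In Dmp1KO, 70.2% of the cells with *Mrc1* had a *Stab1* UMI compared with 24.8% of the cells without, and in WT the shares were 86.9 and 43.5%. *Mrc1* and *Mertk* followed in WT (log2 odds ratio 1.81), Fgf23cKO (1.62) and Dmp1KO/Fgf23cKO (1.99). In Dmp1KO they had 1.91, with *Marco* and *Mrc1* in between at 2.15. The 6 pairs with *Cd36* had genotype means between -0.78 and 0.52. Some pairs without *Cd36* fell in that range too, such as *Msr1* and *Mertk* with 0.073 in WT. Measured as the log2 ratio of observed to expected cells with both genes, 17 of 21 pairs were more linked in both Dmp1KO cultures than in all WT cultures, *Mrc1* and *Stab1* with 0.78 compared with 0.12 and *Marco* and *Mrc1* with 0.99 compared with 0.075. That ratio cannot exceed a limit set by how many cells have each gene, which lies close to 0 where most cells do, as in WT. By the log2 odds ratio, a measure without this limit that was chosen after seeing the data, 9 of the 21 pairs were above all WT cultures and 3 above all Dmp1KO/Fgf23cKO cultures. *Marco* and *Mrc1* were among the 9, with 2.15 ± 0.439 (SD, n = 2) in Dmp1KO and 0.865 ± 0.560 (SD, n = 3) in WT. So were *Marco* and *Axl*, with 1.28 ± 0.151 (SD, n = 2) and 0.193 ± 0.108 (SD, n = 3). The 3 were *Marco* and *Msr1*, *Marco* and *Stab1*, and *Mrc1* and *Axl*. In Dmp1KO these *Marco* values rest on 65 and 80 thinned cells with a *Marco* UMI. Other pairs went the other way, with both Dmp1KO cultures below all WT cultures. They were *Stab1* and *Mertk* (mean 1.28 in Dmp1KO and 1.65 in WT) and *Cd36* and *Mrc1* (-0.42 and 0.22). *Cd36* and *Stab1* (-0.32 and 0.040) and *Marco* and *Cd36* (-0.28 and 0.52) did the same. Cells of a culture share their library and are not replicates, so these are descriptions and no test was made.

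**Figure D4:**
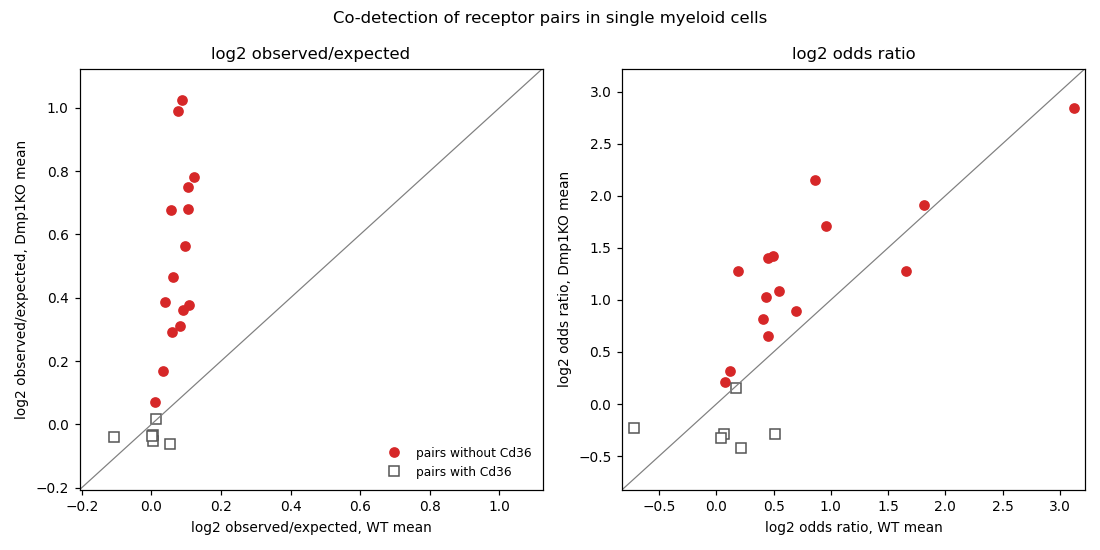
Co-detection of 21 receptor pairs in thinned myeloid cells, Dmp1KO mean (y axis) against WT mean (x axis), as log2 of observed over expected cells (left) and as log2 odds ratio (right), with the line of equal values; filled points are pairs without *Cd36* and open squares the 6 pairs with it. On the left the pairs without *Cd36* lie above the line, up to 1.02 for *Marco* and *Axl*, and on the right *Mrc1* with *Stab1*, at 3.12 and 2.84, lies below it.

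Across thinned myeloid cells, the genes that went most with each receptor were sought by Pearson's r within each of the 11 tagged cultures, averaged over them, among 3481 genes found in at least 10% of cells of every culture. *Mrc1* went with *Slc9a9* (mean r 0.59, 0.53 to 0.72 over cultures), *Fcrls* (0.56), *Maf* (0.56), *Dab2* (0.53) and *Stab1* (0.52, 0.44 to 0.62), and *Stab1* with *Mrc1*, *Fcrls* (0.49), *Slc9a9* (0.47), *Maf* (0.45) and *Dab2* (0.40). *Maf* encodes a transcription factor of macrophages. *Mertk* shared *Slc9a9*, *Maf* and *Mrc1* with them at lower values, in a list of *Slc9a9* (0.37), *Apoe* (0.35), *Mrc1* (0.33), *Maf* (0.32) and *Selenop* (0.32). *Cd36* went with other genes, *Prdx1* (0.26), *Gpnmb* (0.23), *Mmp12* (0.22), *Lgals3* (0.22) and *Ftl1* (0.20). *Msr1* led with *Actb* and *Tmsb4x* at 0.21, and the highest mean r of *Axl* (*Ly6e*, 0.16), *Marco* (*Lyz2*, 0.14) and *Cd163* (*Fcrls*, 0.080) were too weak in sparse counts to be read. Cells of a culture share library and depth class, and these values are descriptions.

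In bulk sums, fewer cells of a kind and less RNA per cell cannot be told apart, so the receptors were also read inside clusters. Clustering with the receptors left out of the principal components gave 20 clusters, of which 0 was 98.35% WT and 3, 4, 5 and 8 were 82.05 to 95.92% Dmp1KO. *Marco* and *Mrc1* stood at 519 and 1775 CPM in cluster 0, and at 6.49 and 49.1 CPM in cluster 3, which was led by *Itgax*, *Mmp12* and *Mfge8* and held *Cd36* at 1302 CPM. A cluster drawn mostly from 1 pool may be that pool rather than a kind of cell. The 4 myeloid clusters shown had at least 10 cells of every tagged culture and few mitochondrial UMIs, and the choice to read them was made after seeing the data. In cluster 1, led by *F13a1*, *Cd86* and *Slc9a9*, *Mrc1* was at 1914 ± 244 (SD, n = 3) CPM in WT, 1908 ± 48.5 (SD, n = 3) in Fgf23cKO, 1844 ± 121 (SD, n = 2) in Dmp1KO and 1807 ± 46.6 (SD, n = 3) in Dmp1KO/Fgf23cKO, and *Stab1* between 1093 and 1310 CPM. *Marco*, in the same cells, was at 408 ± 309 (SD, n = 3) CPM in WT, 361 ± 146 (SD, n = 3) in Fgf23cKO, 45.2 ± 0.617 (SD, n = 2) in Dmp1KO and 121 ± 15.6 (SD, n = 3) in Dmp1KO/Fgf23cKO. WT gave 11, 14 and 17 cells to this cluster, and the genes that grouped its cells include those that go with *Mrc1*. In cluster 10, led by histone and other genes of DNA replication, *Marco* stood at 436 in WT and 11.3 CPM in Dmp1KO, *Mrc1* at 1044 and 204 CPM, *Stab1* at 787 and 207 CPM and *Mertk* at 228 and 78.2 CPM. Cluster 12, led by mitotic genes, gave 389 and 9.63 CPM for *Marco* and 902 and 215 CPM for *Mrc1*. In cluster 2, led by *Slc7a11* and *Procr*, *Mrc1* was low in every genotype (309, 452, 258 and 446 CPM in WT, Fgf23cKO, Dmp1KO and Dmp1KO/Fgf23cKO), *Marco* was at 402, 228, 66.5 and 73.3 CPM, and *Mertk* was higher in Dmp1KO (418 CPM) than in WT (282 CPM).

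**Figure D5:**
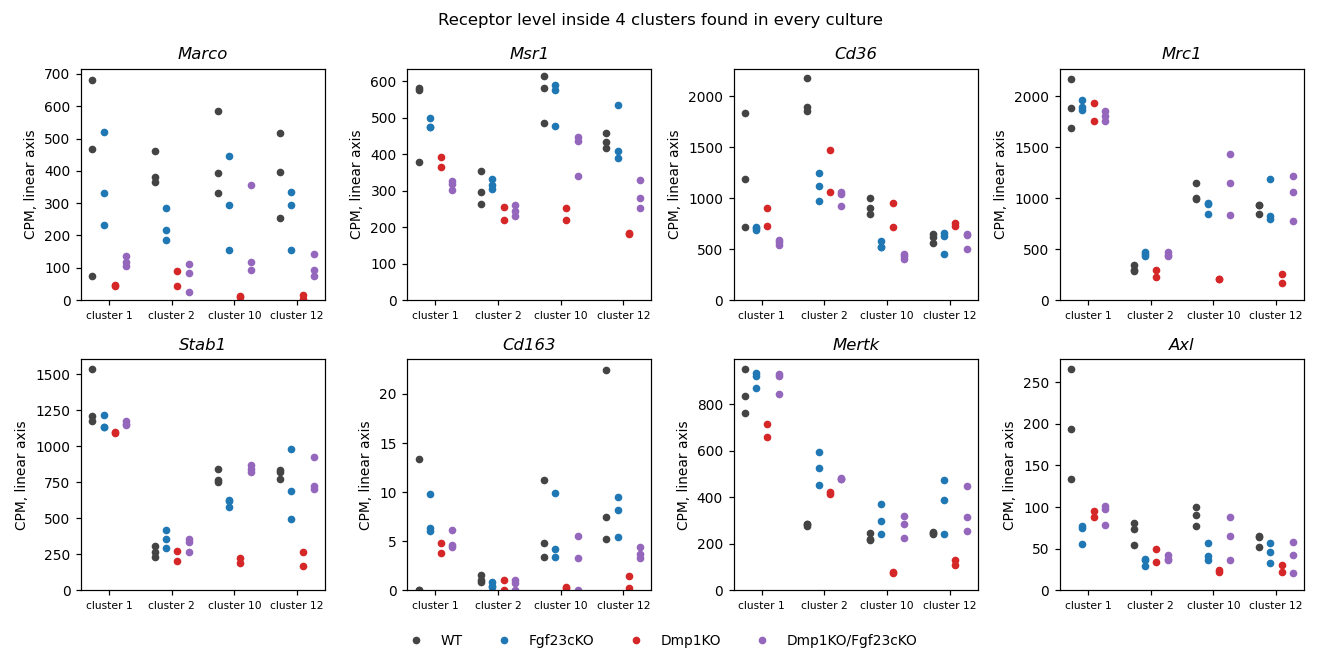
Level of 8 receptors (CPM, linear axes from 0) inside the 4 myeloid clusters with few mitochondrial UMIs and at least 10 cells of every tagged culture. Each point is a tagged culture, coloured by genotype. *Marco* is lower in Dmp1KO than in the WT mean in all 4 clusters, whereas *Mrc1* is near 1844 CPM in cluster 1 of Dmp1KO, close to WT, and near 204 and 215 CPM in clusters 10 and 12.

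The other genes of these pathways were counted in the same fit, and their counts are to be read against the 69.9% of all genes called in Dmp1KO compared with WT and the 65.6% called in Dmp1KO/Fgf23cKO compared with Dmp1KO. Of 10 bridging molecules and ligands, 5 rose and 4 fell in Dmp1KO compared with WT (69.9% of all genes called). *Mfge8*, whose product links phosphatidylserine to integrins, was at 20.5 ± 12.5 (SD, n = 3) CPM in WT and at 1167 and 1337 CPM in the Dmp1KO cultures (log2 fold change 6.14, SE 0.43, edgeR adjusted p = 4.928e-08), and at 43.6 ± 5.28 (SD, n = 3) CPM in Dmp1KO/Fgf23cKO. *Anxa1*, a phospholipid-binding annexin, rose (2.47, SE 0.14, edgeR adjusted p = 9.019e-09) and the complement gene *C3* fell (-2.10, SE 0.21, edgeR adjusted p = 1.572e-06). *Gas6*, the ligand of MERTK and AXL, was at 554 CPM in WT, 504 in Fgf23cKO, 192 in Dmp1KO and 727 in Dmp1KO/Fgf23cKO, and rose in Dmp1KO/Fgf23cKO compared with Dmp1KO (1.64, SE 0.11, edgeR adjusted p = 6.344e-08). Of 16 other efferocytosis receptors and engulfment genes, 5 rose and 8 fell in Dmp1KO (69.9% of all genes called), and 10 rose and 2 fell in Dmp1KO/Fgf23cKO compared with Dmp1KO (65.6%), among them the integrin gene *Itgav* (1.27, SE 0.10) and *Elmo1*, of the engulfment machinery (0.75, SE 0.080).

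Of 12 genes listed with other scavenger receptors and tested, 5 rose and 4 fell in Dmp1KO compared with WT, a share close to the 69.9% of all genes called. *Vldlr* fell from 2.23 to 0.116 CPM and *Cd5l* rose from 1.81 to 4.87 CPM, both at levels of a few CPM or less. Of 10 genes of alternative activation and resident macrophages, 1 rose and 7 fell (69.9% of all genes called, median log2 fold change -1.23), led by the complement receptor gene *Vsig4* (153 compared with 10.2 CPM, -3.65, SE 0.18, edgeR adjusted p = 2.831e-09) and the lectin genes *Mgl2* (-2.21) and *Clec10a* (-2.09), and 7 of the 10 rose in Dmp1KO/Fgf23cKO compared with Dmp1KO (65.6% of all genes called). The list of alternative activation and resident macrophage genes held 14 genes, of which 10 were tested. *Chil3*, *Retnla* and *Cd209f* of that list had no UMI in the tagged myeloid cells. Of 12 transcription factors, 4 rose and 6 fell in Dmp1KO (69.9% of all genes called). *Maf* was at 2005 ± 83.1 (SD, n = 3) CPM in WT, 874 ± 99.6 (SD, n = 3) in Fgf23cKO, 213 and 302 CPM in Dmp1KO and 946 ± 40.2 (SD, n = 3) in Dmp1KO/Fgf23cKO (Dmp1KO compared with WT -2.70, SE 0.13, edgeR adjusted p = 1.918e-09), followed by *Spic* (-1.79) and *Tfec* (-1.36). Of 6 genes of proteases that shed receptors and their regulators, 5 fell and none rose in Dmp1KO (69.9% of all genes called), among them *Adam10*, whose product is known to cleave AXL (157 compared with 68.0 CPM, -0.94, SE 0.073, edgeR adjusted p = 1.149e-07), and *Mmp14* (-2.18), and 5 rose in Dmp1KO/Fgf23cKO compared with Dmp1KO (65.6%). *Rhbdf1* of this list fell (-0.66) but was higher with thinned cells.

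All 12 genes of sterol sensing and efflux were called in Dmp1KO compared with WT (69.9% of all genes called), 7 higher and 5 lower, with *Pparg*, a nuclear receptor that induces *Cd36*, at 23.7 and 60.4 CPM (1.66, SE 0.17, edgeR adjusted p = 1.86e-06), *Mylip* lower (-1.01) and the cholesterol exporter gene *Abca1* lower (-0.74). Of 10 haem and iron genes, 4 rose and 4 fell (69.9% of all genes called). The iron exporter gene *Slc40a1* fell from 416 to 74.7 CPM (-2.21, SE 0.12, edgeR adjusted p = 6.817e-09), and the ferritin genes *Ftl1* (1.37, SE 0.061) and *Fth1* (0.97, SE 0.044) rose. Of 10 genes that respond to the stress of dissociation, 2 rose and 5 fell in Dmp1KO, close to the share of 69.9% of all genes called, with *Egr1* at -2.14 and *Atf3* at 1.16, and the part of this list in the receptors' levels was not tested.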

How the data were processed

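Single-cell RNA-Seq (10x 3′ v3 with CellPlex tags) was made from bone marrow stromal cell cultures of 4 genotypes. The deposited counts are raw UMI counts per gene and cell that the authors made with Cell Ranger (7.0.1 in the file headers) on mm10, with cells assigned to cultures by tag and tagged multiplets removed; Seurat is also named in the submitters' processing notes. Of 16 samples listed, 15 had a matrix. Untagged cells of each pool were left out of the tests. Multiplets within a culture remain, and no doublet caller was run. The receptors and gene lists were chosen with earlier results of these data known.

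Counts of myeloid cells were summed per tagged culture and tested with edgeR 4.0.16 (R 4.3.3; TMM factors, filterByExpr, quasi-likelihood F test, all genotypes in 1 fit, Benjamini-Hochberg over all genes tested, called under 0.1). The study tested cells, whereas the culture was the replicate here. An exact permutation test of a single value could not go below p = 0.1 for 3 against 3 cultures or 0.2 for 2 against 3, so shares of cells were not tested. Same-numbered cultures of different genotypes correlated between -0.13 and 0.12 in their deviations from the group means (15 pairs), and other pairs between -0.14 and 0.13 (30 pairs), so that the numbers do not pair the cultures. Clusters were made with Seurat 5.3.0 and sctransform 0.4.2 (3000 variable genes, 30 components, resolution 0.8), with the receptors kept out of the components. Python 3.11.15, numpy 2.4.6, scipy 1.17.1 and pandas 2.3.3 were used for the rest. Scripts were tested on simulated data. Genes of the pathway lists were named when called, with cultures that did not overlap, among the 3 largest changes of their list, and 5 genes were named as nearest to each receptor. Total UMIs per tagged culture set the depth, and intervals cover counting error only. Alternatives were DESeq2 1.42.0, RLE factors, no filter, a replicate block, untagged cells included, a stricter gate (1% and 10 times), Seurat clusters as classes, a filter on cells (500 genes, 20% mitochondrial UMIs), other thinning depths, removal of cycling and osteoclast marker cells, leaving out each culture and a limit of 0.05.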

Additional observations from a re-analysis of the deposited data

Results flagged for a closer look

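For 7 receptors the effect of the Cre differed between the Dmp1KO and the WT background by a test of the interaction in edgeR, as the log2 fold change on the first minus that on the second. The values were 3.49 for *Marco*, 2.48 for *Cd163*, 2.12 for *Mrc1*, 2.08 for *Stab1*, 1.81 for *Axl*, 1.25 for *Mertk* and 0.37 for *Msr1*. Genotype and droplet reaction cannot be told apart in these values.

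*Mertk* in Fgf23cKO replicate 3, at 467 CPM, lay far below the other 3 samples of its genotype, the untagged cells included. Its gap to the nearest of them was 0.858 of the whole range, above Dixon's critical value for 4 samples. Of 24 such groups examined 1 was flagged. For independent samples chance flags about 1 in 20. The untagged cells come from the same pool as the tagged cultures, so this rate is a rough guide.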

How the results depend on the processing

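The 7 receptors lower in Dmp1KO than in WT, and the 8 that differed between Dmp1KO/Fgf23cKO and Dmp1KO, kept direction and call in all 21 alternatives. With 1 culture left out at a time, the number of receptors called was 7 to 8 for Dmp1KO compared with WT, 3 to 6 for Fgf23cKO compared with WT (3 without WT replicate 2), 6 to 6 for Dmp1KO/Fgf23cKO compared with WT, 8 to 8 compared with Dmp1KO, 4 to 7 compared with Fgf23cKO (4 without Dmp1KO/Fgf23cKO replicate 2) and 7 to 8 for the interaction. Without either Dmp1KO culture the one left was assumed to vary like the other groups. Without cycling and osteoclast marker cells, 4 receptors differed between Dmp1KO/Fgf23cKO and Fgf23cKO. By the log2 odds ratio, chosen after seeing the data, 9 of 21 pairs lay above WT in Dmp1KO, compared with 17 by the ratio of observed to expected cells. These counts leave out pairs that lay below WT.

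With the replicate number as a block, 7, 5, 6, 8, 6 and 7 receptors were called in the same order of comparisons. The cultures share only a number.

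Small differences changed sign without passing the test under these settings. *Cd36* in Dmp1KO compared with WT was 0.079 with no filter, 0.0070 with Seurat clusters, 0.027 without WT replicate 1 and 0.053 without Dmp1KO replicate 3, with a range of -0.16 to 0.053 when 1 culture was left out, and its interaction was 0.013 with thinned cells. *Msr1* in Fgf23cKO compared with WT was 0.016 with Seurat clusters, 0.046 without cycling and osteoclast marker cells, 0.020 without WT replicate 2 and 0.031 without Fgf23cKO replicate 3, with a range of -0.055 to 0.031 when 1 culture was left out. *Mrc1* in Dmp1KO/Fgf23cKO compared with WT was -0.0091 under the stricter gate and -0.053 with thinned cells. A pair of called values changed sign and lost the call: *Mfge8* in Dmp1KO/Fgf23cKO compared with WT was -0.62 without cycling and osteoclast marker cells (edgeR adjusted p = 0.1333), and *Rhbdf1* in Dmp1KO compared with WT was 0.42 with thinned cells (edgeR adjusted p = 0.4032). The cause was not tested.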
